A study of Mus musculus with 69 samples.

Results

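Nuclear-encoded subunits of the 5 oxidative phosphorylation complexes were followed in single cells of the mouse dorsal forebrain at embryonic day 14. The members were chosen by name: genes whose symbol starts with Ndufa, Ndufb, Ndufc, Ndufs, Ndufv, Uqcr, Cox4i, Cox5, Cox6, Cox7, Cox8 or Atp5, and Sdha, Sdhb, Sdhc and Sdhd, without assembly factors. The rule found 82 of the 18194 genes measured: 36 for complex I, 4 for complex II, 8 for complex III, 17 for complex IV and 17 for complex V. Genes without a probe set assigned to them alone were not analysed here.

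Of 69 cells from embryos of CD1 mice, an outbred strain, 3 came from the cortical plate (CP), where young neurons settle, and 66 from the ventricular and subventricular zones (VZ/SVZ), where progenitors divide. Cells were freed with trypsin from small pieces of the dorsolateral cerebral wall, picked by hand at random, lysed with 4 bacterial spike RNAs, amplified and put on an Affymetrix array each. No cell was treated and no gene was altered. The titles carry a letter whose meaning the labels do not give: E for the 3 CP cells, and A (7 cells), B (14), C (7), D (7) and X (31) within the VZ/SVZ. No label names an animal or litter, so each group counts as 1 sample, all differences describe these cells, and no p-value is given.

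The layer labels were set against marker genes. Tubb3, a tubulin of neurons, had a signal above 50 in 3 of 3 CP cells and 35 of 66 VZ/SVZ cells. Sox2, a transcription factor of neural progenitors, was above 50 in 0 of 3 CP cells and 49 of 66 VZ/SVZ cells, and Eomes, of intermediate progenitors, in 0 of 3 and 28 of 66. All 8 neuron markers were 1 log2 unit or more higher in CP, and no CP cell was above 50 for any of the 5 markers of dividing cells measured. Progenitor markers were less clear. Of those of apical progenitors 5 of 8, and of intermediate progenitors 3 of 6, were above 50 in no CP cell, and the rest in at least 1. By 1 log2 unit or more, 5 of 8 and 5 of 6 were lower in CP. No endothelial, microglial or erythroid marker was above 50 in any of the 69 cells. Of the interneuron-lineage markers 4 of 6, and of the pericyte and meningeal markers 4 of 5, were above 50 in no CP cell and in some VZ/SVZ cell, and the rest in no cell. The title letters go with these markers: all 7 letter D cells had Tubb3 and none had Sox2 or Eomes, so they resemble the CP cells in these genes.

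Oxidative phosphorylation makes most of the ATP of many cells. Complex I takes electrons from NADH and complex II from succinate, complex III passes them on to cytochrome c, and complex IV hands them to oxygen. The proton gradient that complexes I, III and IV build drives complex V, the ATP synthase. A few subunits are encoded in the mitochondrial genome and the rest in the nucleus, and neuronal differentiation is known to go with a larger use of mitochondrial respiration. Several complex IV subunits exist as isoforms from separate genes, some used widely and others mainly in muscle, lung or testis.

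Most members gave signal in nearly every cell. A signal above 50, a level that none of 207 values of a control RNA absent from the cells reached, was found in all 69 cells for 36 of 82 members (43.9%), against 1.76% of all genes. At least 90% of cells passed it for 65 members (79.3%), against 5.54% of all genes. The 36 were 8 of complex I, 1 of complex II, 4 of complex III, 9 of complex IV and 14 of complex V. They include the subunits of the catalytic head of the ATP synthase, Atp5a1, Atp5b, Atp5c1, Atp5d and Atp5e. At signal 100 the number in all cells was 33.

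Of the 82 members, 11 were above 50 in under 50% of cells, and 8 of these 11 belong to complex IV. A low share belongs to the probe set as much as to the gene, since probe sets differ in brightness. Cox7c, a subunit used in most tissues, was above 50 in 15 of 69 cells (21.7%, exact 95% interval 12.7% to 33.3%), and the complex I subunits Ndufb1 and Ndufb4 in 10.1% (4.18% to 19.8%) and 1.45% (0.0367% to 7.81%). The other probe sets that list Ndufb4 list its paralogues too and were not used. Intervals cover counting error only.

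**Figure D1:**
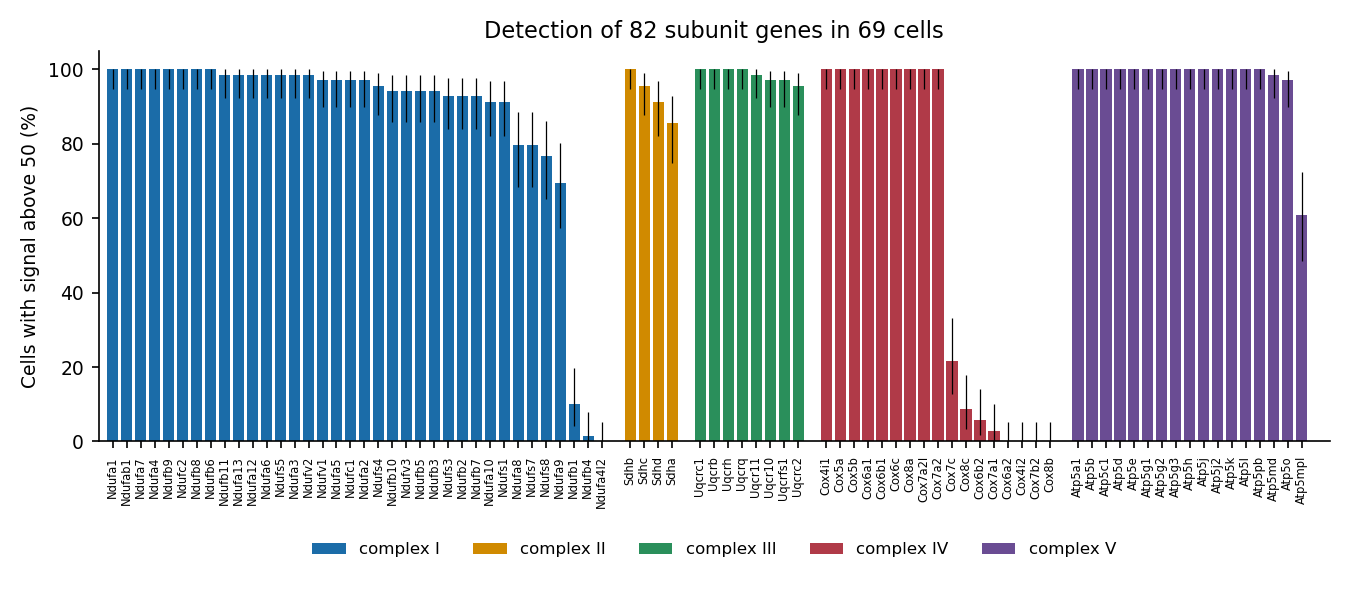
Share of the 69 cells with a signal above 50 for each of the 82 subunit genes, in percent, grouped by complex and sorted by share. Bars are shares and lines are exact 95% intervals. At least 90% of cells pass for 8 of 8 genes of complex III and 16 of 17 of complex V, while complex IV has 9 genes at 100% and 8 under 50%.

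Among the isoform genes, the widely used form was found in every cell and the tissue-restricted form in few or none. Cox4i1 was above 50 in 69 of 69 cells and Cox4i2, known from lung and from low oxygen, in 0 of 69. Cox6a1 was above 50 in all cells and Cox6a2, the heart and skeletal muscle form, in none. Cox8a was found in all cells, Cox8b, a muscle form, in none, and Cox8c, known from testis, in 6 (8.7%, 3.26% to 18%). The same held for Cox6b1 in 69 cells beside Cox6b2, of testis, in 4 (5.8%, 1.6% to 14.2%). Cox7a2 and Cox7a2l, a factor in the joining of respiratory complexes, were found in all cells, beside the muscle form Cox7a1 in 2 (2.9%, 0.353% to 10.1%). Ndufa4, counted under complex I by its name and now placed in complex IV, was above 50 in all cells and its paralogue Ndufa4l2 in none. Cox7b2, of testis, was above 50 in 0 of 69 cells, as were the 4 other genes named here with none. A count of 0 of 69 allows a share of up to 4.35% by a limit of 3 counts, and up to 5.21% by the exact interval. These limits are for cells with a signal above 50. Spike thr, added at 5 copies per cell, had a median of 5.64, the floor, in both layers, so an RNA at few copies can be missed.

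Subunit c of the ATP synthase, which forms its turning ring, is made from 3 genes that give the same mature protein. Atp5g1, Atp5g2 and Atp5g3 were all above 50 in 69 of 69 cells. Their spread differed: the SD over VZ/SVZ cells was 0.78 log2 units for Atp5g1, 0.48 for Atp5g2 and 0.25 for Atp5g3.

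Promoters are shown for a gene found in every cell with the smallest spread, Cox6a1, for Atp5k, described with the layers, and for Cox8b, found in no cell. Each is the RefSeq sequence of the 250 bases before the gene's start (GRCm38.p6), 5′ to 3′ in the direction of the gene. Capitals mark matches, on either strand, to a motif of the factor NRF1 (GCGC, 2 bases of any kind, then GCGC again) and to CCGGAAG, a motif of ETS factors such as GABPA. Cox6a1 is at chr5:115348959-115349208 on the minus strand, Atp5k at chr5:108434400-108434649 on the minus strand and Cox8b at chr7:140900447-140900696 on the minus strand.
Cox6a1: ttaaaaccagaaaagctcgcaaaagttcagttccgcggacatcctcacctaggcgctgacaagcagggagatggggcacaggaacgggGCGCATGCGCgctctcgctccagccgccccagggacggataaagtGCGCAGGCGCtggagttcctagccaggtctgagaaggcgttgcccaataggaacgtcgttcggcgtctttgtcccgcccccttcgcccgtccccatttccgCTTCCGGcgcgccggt
Atp5k: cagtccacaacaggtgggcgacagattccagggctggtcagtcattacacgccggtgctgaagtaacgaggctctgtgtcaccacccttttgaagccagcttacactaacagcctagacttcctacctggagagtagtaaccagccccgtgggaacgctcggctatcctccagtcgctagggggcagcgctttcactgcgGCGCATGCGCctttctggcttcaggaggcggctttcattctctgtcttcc
Cox8b: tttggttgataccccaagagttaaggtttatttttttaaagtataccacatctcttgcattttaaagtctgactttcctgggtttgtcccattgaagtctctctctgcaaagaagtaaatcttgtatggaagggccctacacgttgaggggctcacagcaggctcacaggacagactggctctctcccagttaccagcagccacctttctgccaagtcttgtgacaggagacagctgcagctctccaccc

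The Cox6a1 promoter holds 2 matches to the NRF1 motif and 1 to the ETS motif, Atp5k 1 to the NRF1 motif, and the Cox8b stretch neither. Atp5k has an ETS match too, 13 bases after the start and so beyond the stretch printed. RefSeq promoters were found for 67 of 82 members and were searched on both strands over 300 bases, 250 before to 50 after the start. The NRF1 motif was in 17 of 67 (25.4%), against 7% of 27025 genes and 11.4% of the genes on the array. The ETS motif was in 17 (25.4%), against 9.93% and 15%, and AAGATGG, a motif of the factor YY1, in 10 (14.9%), against 7.28% and 7.53%. In all, 4 member promoters held both the NRF1 and the ETS motif, and 39 held any of the 3. Of the 7 matched members found in under 50% of cells, 1 held the NRF1 motif and 0 the ETS motif, and of the other 60 members 16 and 17 did. A match describes letters in a window, not a bound site.

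How much a member varied from cell to cell went with its level. Among members above 50 in at least 90% of VZ/SVZ cells, Cox6a1 had the smallest SD over the 66 cells, 0.21 log2 units around 12.51, followed by Atp5g3 with 0.25 around 12.26. Their SDs were near that of the spike RNA lys, added at 1000 copies per cell, which read 12.46 ± 0.22. Spike dap, at 100 copies, read 11.34 ± 0.58 (SD over 66 cells), and the 19 members within 0.5 log2 units of it had a median SD of 0.63, against 0.72 for 169 genes at that level. Spike phe, at 20 copies, read 9.79 ± 0.95, and 18 members near it had a median SD of 1.35, against 1.44 for 528 genes. Spike thr, at 5 copies, read 6.84 ± 1.59. The median member near phe thus spread more than that spike, as the median gene of that level did, though single members ran from 0.72 to 1.64.

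**Figure D2:**
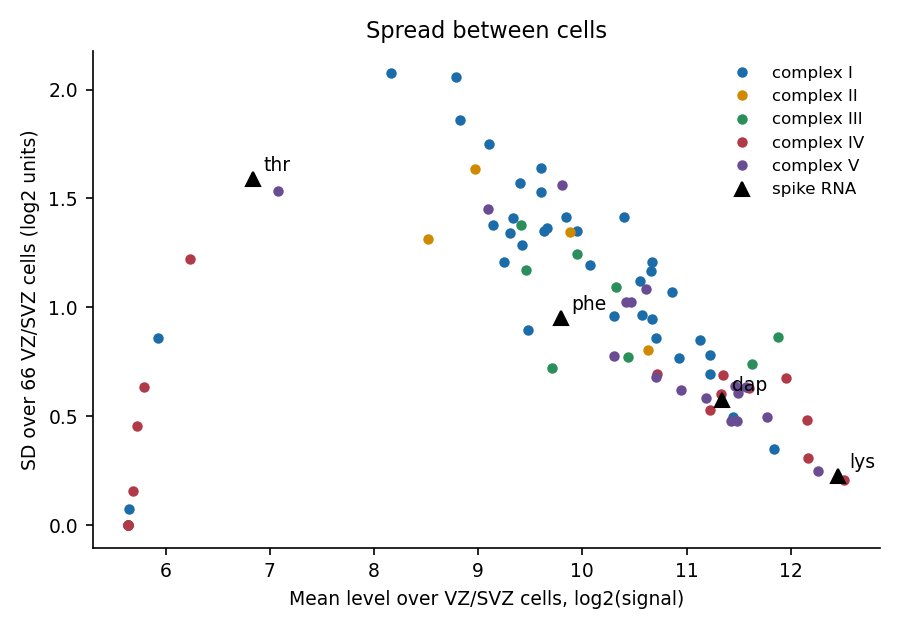
SD over the 66 VZ/SVZ cells against the mean level of each member (log2 signal, floor at 50), coloured by complex, with the 4 spike RNAs as black triangles. The SD is 0.21 for Cox6a1 at the right and reaches 2.06 for Ndufs8 at a middle level. Members at the far left lie on the floor.

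The largest SDs by the same rule were those of Ndufb7, an accessory subunit of the membrane arm of complex I, at 1.64, and Ndufs3, a core subunit, at 1.57. Ndufb7 ran over VZ/SVZ cells from the floor of 5.64 (a signal of 50 or less) through a median of 9.93 to 11.80, and Ndufs3 from the floor through 9.94 to 11.52. Ndufs8, a core iron-sulfur subunit described again with the layers, was present or missing as a whole in most cells. Its 5 probe sets that were above 50 in at least 70% of cells were all above 50 in 49 cells, none was in 16, and they disagreed in 4. For Ndufs7, another core iron-sulfur subunit, 2 probe sets were both above 50 in 55 cells, neither in 12, and 2 cells were mixed. Loss of an RNA in amplification and its absence from the cell cannot be told apart here.

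Measured levels of members of the same complex were no more correlated than those of members of different complexes. Across the 66 VZ/SVZ cells the median correlation of 593 pairs of members of the same complex was 0.14 (Pearson), and that of 1487 pairs from different complexes 0.15. After the mean level of 515 bright genes (mean level of at least 10) was taken from each cell, the medians were 0.04 and 0.04. The 515 genes include 44 members. These are descriptions over cells that share depth and amplification. The spikes, added in equal amounts, spread between cells as well, and how far such spread lowers the correlations was not tested.

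The mean level of all 82 members was 9.22, 9.52 and 9.59 in the 3 CP cells, against a lowest, median and highest VZ/SVZ cell of 9.02, 9.81 and 10.32 on the log2 scale. All CP cells were below the VZ/SVZ median and within its range. The members' share of the summed signal of all genes, which does not depend on a cell's scaling, was 3.45%, 3.93% and 4.03% in CP cells, against 2.76%, 3.45% and 4.43% for the lowest, median and highest VZ/SVZ cell. By this measure 2 CP cells lay above the VZ/SVZ median and 1 just below it, all within the range. With the mean of all probe sets per gene, the median share was 4.47% in CP and 3.99% in VZ/SVZ.

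CP cells gave less signal over genes in general. Genes above 50 numbered 3713, 3904 and 4719 in CP cells, against 3726 to 5715 in VZ/SVZ cells with a median of 4712. The trimmed mean signal was 50.1, 55.6 and 76.1 in CP and had a median of 93.8 in VZ/SVZ. The spikes of higher copy number differed less: lys read 12.18 ± 0.15 in CP and 12.46 ± 0.22 in VZ/SVZ, and dap 11.32 ± 0.26 and 11.34 ± 0.58. The spikes of lower copy number did not: phe read 8.75 ± 0.82 and 9.79 ± 0.95 (each SD over 3 and 66 cells). Spike thr was on the floor in all 3 CP cells and had a mean of 6.84 in VZ/SVZ. Less RNA in a cell and a lower yield from it cannot be told apart.

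**Figure D3:**
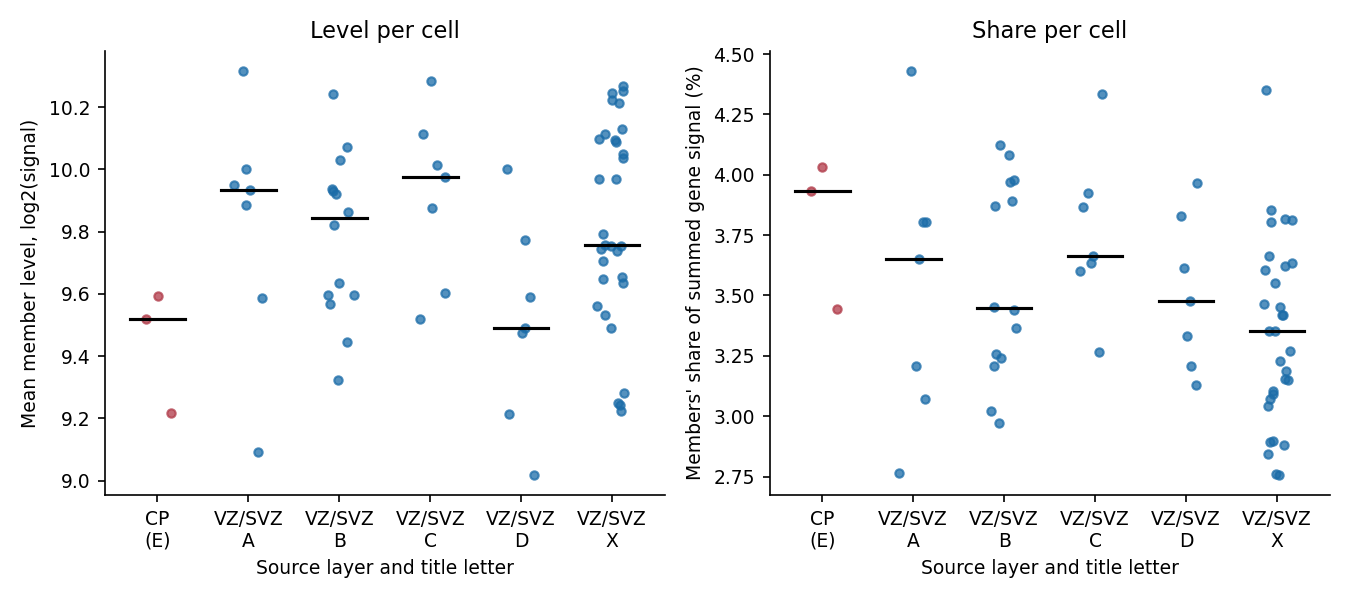
Mean level of the 82 members (left, log2 signal) and their share of the summed signal of all genes (right, percent) in each of the 69 cells, by layer and title letter. Points are cells and lines are medians. CP cells lie at 9.22 to 9.59 on the left and at 3.45% to 4.03% on the right, so they are below the VZ/SVZ median by level, which depends on the scaling of the cells, while by share 2 lie above it and 1 just below it.

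Gene by gene, the median difference CP minus VZ/SVZ was −0.31 log2 units over the 82 members on the deposited scale. It was 0.16 with each cell scaled to the same trimmed mean and 0.02 after quantile normalization, so its sign depends on the scaling. Over all genes the median was 0 in each of these, since most lie on the floor. Over the 515 bright genes it was −0.63, 0.03 and −0.12, and over the 44 members among them −0.44, 0.22 and 0.02. With cells scaled to the lys and dap spikes, an alternative added after the data were seen, the median was −0.21 for members and −0.49 for bright genes. That scaling left out phe and thr, which read lower in CP. On the deposited scale the median over members was −0.01 against the 7 letter D cells alone, and −0.31 against the VZ/SVZ cells with Tubb3. Within each cell, the mean level of the 44 bright members minus that of the 515 bright genes was 0.44, 0.65 and 0.67 in CP. The lowest, median and highest VZ/SVZ cells had −0.43, 0.11 and 0.64. By this measure the bright members stood higher in CP than in most VZ/SVZ cells. Bright genes were picked by mean level over all 69 cells, of which 66 are VZ/SVZ cells.

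On the deposited scale, 11 of 82 members were 1 log2 unit or more lower in CP, beside 12.9% of all genes, and 2 were higher, beside 5.07%. Both shares depend on the genes they are read against, since most genes lie on the floor. Among genes with a mean signal above 50, 28.8% were lower and 9.88% higher, beside 15.3% and 2.78% of the 72 members among them. Among bright genes 37.5% were lower and 0.971% higher, beside 5 (11.4%) and 0 of the 44 bright members. No member separated the groups, where all 3 CP cells lay below every VZ/SVZ cell for 0.0385% of genes and above for 0.0495%, and among bright genes below for 1.36%. All 3 CP cells lay below the VZ/SVZ median for 34 members (10.8% of all genes) and above it for 4 (3.6%): Atp5k, Ndufa6, Ndufs3 and Ndufv3. Among the bright genes 63.3% had all CP cells below the median, beside 25 of the 44 bright members. By complex, the median difference was −0.29 for complex I (1 higher and 7 lower of 36), −0.78 for II (0 and 1 of 4), −0.32 for III (0 and 0 of 8), −0.13 for IV (0 and 1 of 17) and −0.38 for V (1 and 2 of 17).

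Of the 82 members, 5 kept a difference of at least 1 log2 unit under all 11 settings tried, with other floors, scalings, probe sets, left-out CP cells or letter D as the comparison: Ndufs1, Ndufs7 and Ndufa12 were lower in CP, and Atp5k and Ndufs8 higher. Over all 18194 genes 437 (2.4%) kept it as lower and 185 (1.02%) as higher. Most of these genes lie on the floor, where the step can hardly be passed. All 437 lie among the 8120 genes with a mean signal above 50, which hold 72 of the members.

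Ndufs1, the largest subunit of the NADH arm of complex I and a carrier of iron-sulfur clusters, read 5.64, 5.64 and 7.96 in the 3 CP cells, against a lowest, median and highest of 5.64, 9.59 and 10.92 in VZ/SVZ cells. It was above 50 in 1 of 3 CP cells and 62 of 66 VZ/SVZ cells. The difference was −2.83, and between −4.65 and −2.35 over the settings. Its lowest CP cells were on the floor, and 58 VZ/SVZ cells lay above the highest CP cell.

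Ndufs7, which carries the iron-sulfur cluster next to the ubiquinone site, read 5.64, 5.64 and 8.78 in CP, against 5.64, 9.68 and 11.04 in VZ/SVZ. The difference was −2.42 (−3.60 to −1.89 over the settings), with 1 of 3 CP cells and 54 of 66 VZ/SVZ cells above 50. Low values were not particular to CP, since 12 VZ/SVZ cells were at the floor too.

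Ndufa12, an accessory subunit named after its values were seen, read 5.64, 8.82 and 10.44 in CP, against 7.13, 10.82 and 11.76 in VZ/SVZ. All 66 VZ/SVZ cells were above 50 and so were 2 of 3 CP cells. The difference of −2.40 became −1.07 without CP replicate 1, the cell on the floor, and −3.47 without CP replicate 3, so the size rests on single cells.

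Ndufs8, whose protein sits with Ndufs7 in the arm that meets ubiquinone, was higher in CP. It read 9.25, 10.36 and 10.98 in CP, against 5.64, 9.49 and 11.40 in VZ/SVZ, with 3 of 3 CP cells and 50 of 66 VZ/SVZ cells above 50. The difference was 1.41 (1.02 to 2.09), and 7 VZ/SVZ cells lay above the highest CP cell. Ndufs3 read 10.19, 10.28 and 10.44 in CP, against 5.64, 9.94 and 11.52 in VZ/SVZ, a difference of 0.91. Core subunits of complex I were thus on both sides in the same 3 cells.

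The other complex I members lower by at least 1 log2 unit were Ndufb3 (−1.44), Ndufa10 (−1.23), Ndufa8 (−1.10) and Ndufb9 (−1.04). All are accessory subunits named after their values were seen. With the trimmed mean they stood at −0.78, −0.83, −0.74 and −0.38. Single CP cells carried several of these values: Ndufa10 was −0.09 without CP replicate 3, Ndufa8 −0.06 without replicate 2, Ndufb3 −0.91 without replicate 1, and Ndufb9 −0.62 without replicate 2 and −1.81 without replicate 3. Ndufb9 read 9.57 and 9.70 in 2 CP cells, under the lowest VZ/SVZ cell of 10.26, and 11.96 in the third, above the VZ/SVZ median of 11.45. With the trimmed mean 8 more complex I members were higher by at least 1 log2 unit, from 1.03 for Ndufb5 to 1.58 for Ndufs3, beside 9.15% of all genes under that scaling.

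**Figure D4:**
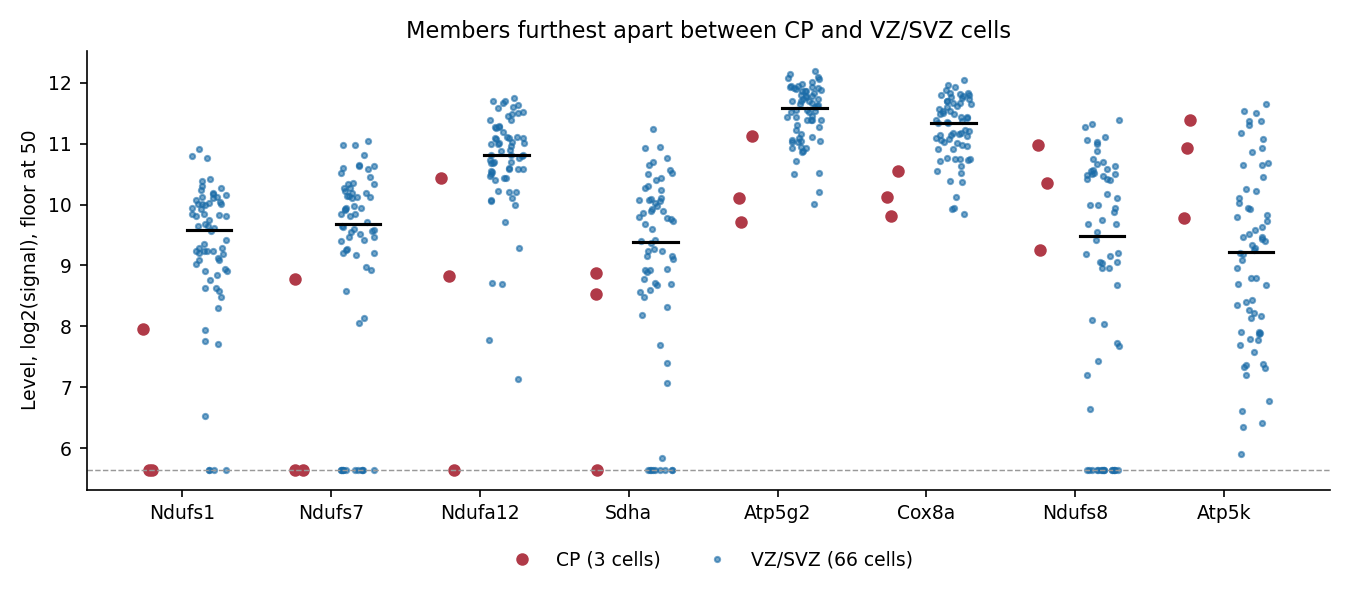
Level (log2 signal, floor at 50, dashed) of 8 members in each cell, with the 3 CP cells as large red points and the 66 VZ/SVZ cells as small blue points beside them; black lines are VZ/SVZ medians. For Ndufs1 and Ndufs7, 2 of 3 CP cells lie on the floor, while for Atp5k all CP cells lie above the VZ/SVZ median. The sizes depend on the scaling of the cells.

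Complex II links the citric acid cycle to the chain. Sdha, its flavoprotein that oxidises succinate, read 5.64, 8.54 and 8.87 in CP, against 5.64, 9.38 and 11.24 in VZ/SVZ, a difference of −1.28 that became −0.26 without CP replicate 3, the cell on the floor. It was −0.57 with the mean of its 4 probe sets. Sdhd, a membrane anchor, read 6.95, 7.01 and 8.78 in CP, against 5.64, 8.92 and 10.66 in VZ/SVZ, a difference of −0.94 (−0.26 with the trimmed mean).

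No complex III member differed by 1 log2 unit on the deposited scale. Uqcrfs1, the Rieske iron-sulfur protein, differed by −0.63 and Uqcrc1, a core protein, by −0.60, and with the trimmed mean both were near 0, at 0.04 and 0.06. Uqcrc1 ran from −0.99 to −0.18 when 1 CP cell was left out, and Uqcrfs1 from −1.01 to −0.41. Uqcr11, a small subunit, differed by 0.25, but by −0.17 without CP replicate 1 and 0.85 without replicate 2. In complex IV, Cox8a read 9.82, 10.13 and 10.55 in CP, against 9.84, 11.35 and 12.04 in VZ/SVZ, a difference of −1.06 (−0.40 with the trimmed mean). Cox5a, which lines the matrix side, read 11.25, 11.42 and 11.50 in CP, against 11.12, 12.23 and 12.73 in VZ/SVZ. All but 1 of the 66 VZ/SVZ cells lay above the highest CP cell for Cox5a, though its difference was −0.78, and −0.12 with the trimmed mean. These values are of its brightest probe set. The others, each above 50 in all 69 cells, gave smaller differences of −0.39 and −0.52. Cox7a2l was the highest, at 0.16, and −0.05 without CP replicate 3.

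In complex V, Atp5k, which encodes subunit e, a membrane subunit at the place where 2 synthases join, was the member furthest above. It read 9.78, 10.94 and 11.39 in CP, against 5.90, 9.23 and 11.65 in VZ/SVZ. The difference was 1.61, and between 1.27 and 2.67 over the settings, and 44 of 66 VZ/SVZ cells lay below the lowest CP cell. Atp5md, a small membrane subunit also known as DAPIT, read 10.15, 10.87 and 11.22 in CP, against 5.64, 10.18 and 11.95 in VZ/SVZ, a difference of 0.94 (1.60 with the trimmed mean).

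Atp5j, a coupling subunit of the stalk, read 10.01, 10.40 and 10.69 in CP, against 8.44, 11.66 and 12.35 in VZ/SVZ, a difference of −1.20 (−0.54 with the trimmed mean). Atp5g2 read 9.71, 10.11 and 11.13 in CP, against 10.02, 11.59 and 12.20 in VZ/SVZ, a difference of −1.16. For Atp5g2 the value was −0.34 with the mean of its 3 probe sets and −0.50 with the trimmed mean. The other genes of subunit c differed less, Atp5g1 by −0.07 (−0.39 to 0.14 when 1 CP cell was left out) and Atp5g3 by −0.38 on the deposited scale.

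**Figure D5:**
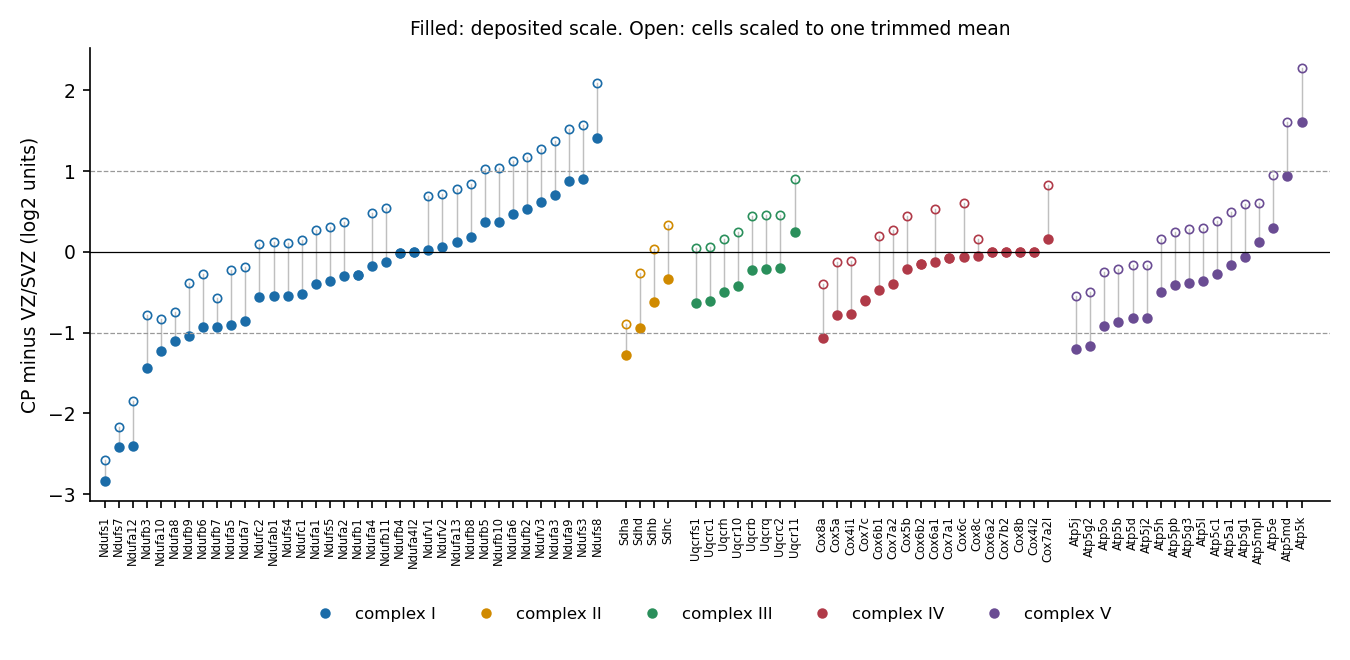
Difference of mean level, CP minus VZ/SVZ, in log2 units for each of the 82 members by complex, on the deposited scale (filled) and with each cell scaled to one trimmed mean (open). Dashed lines mark 1 log2 unit either way. The median over members is −0.31 for filled and 0.16 for open points, while Ndufs1, Ndufs7 and Ndufa12 stay below −1 and Atp5k and Ndufs8 above 1 on both.

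Other genes of the mitochondrion and of glucose use were set beside the members on the deposited scale, where the 515 bright genes had a median of −0.63, and 5.07% of all genes were higher and 12.9% lower past 1 log2 unit. Among genes with a mean signal above 50 these shares were 9.88% and 28.8%, and among bright genes 0.971% and 37.5%. The median difference CP minus VZ/SVZ was −0.60 for 27 listed genes of the respiratory chain and its assembly (1 higher and 9 lower by at least 1 log2 unit), and −1.10 for 15 citric acid cycle genes (0 and 8). The first list as written names Atp5md, a member, under its older name Usmg5. The median difference was −0.95 for 8 carriers and porins (0 and 4), −0.96 for 16 genes of mitochondrial DNA and biogenesis (0 and 8), −0.76 for 17 import genes (0 and 7) and −0.50 for 17 glycolysis genes (5 and 4).

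Several listed genes had low levels in CP. Ssbp1, the single-strand DNA-binding protein of mitochondria, averaged 7.35 ± 2.96 in CP and 10.33 ± 1.25 in VZ/SVZ. Polrmt, the mitochondrial RNA polymerase, was above 50 in 0 of 3 CP cells and 36 of 66 VZ/SVZ cells. Fh1, fumarate hydratase, was above 50 in 1 of 3 and 50 of 66, and Sucla2, a subunit of succinyl-CoA synthetase, was above 50 in 2 of 3 and 55 of 66 and averaged 6.41 ± 0.66 in CP and 8.36 ± 1.71 in VZ/SVZ. Etfa, which feeds electrons from fat oxidation, averaged 6.35 ± 1.22 and 8.73 ± 1.52, and Cox17, a copper chaperone of complex IV, was above 50 in 1 of 3 and 63 of 66.

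The ADP/ATP carrier genes went apart: Slc25a5 averaged 9.39 ± 0.92 in CP and 11.92 ± 0.53 in VZ/SVZ, and Slc25a4, picked after its value was seen, 11.71 ± 0.37 and 11.19 ± 0.54. The phosphate carrier Slc25a3 averaged 9.41 ± 0.55 in CP and 10.95 ± 0.74 in VZ/SVZ. Of the import genes, Tomm40, the channel of the outer membrane, averaged 5.81 ± 0.30 and 8.18 ± 1.64, and Tomm22, its receptor, 7.18 ± 1.37 and 9.42 ± 1.33. Glycolysis genes were on both sides, with Aldoc, an aldolase of glial cells, above 50 in 0 of 3 CP cells and 49 of 66 VZ/SVZ cells. Eno2, the enolase of neurons, was above 50 in 3 of 3 CP cells and 5 of 66 VZ/SVZ cells. ND5, the only mitochondrially encoded subunit gene measured of 13 listed, averaged 9.09 ± 0.67 in CP and 10.18 ± 1.22 in VZ/SVZ.

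Within the VZ/SVZ, cells were set apart by Sox2, Eomes or Tubb3 above 50. Of 66 cells, 20 had Sox2 only, 10 Sox2 and Eomes, 11 all 3, 8 Sox2 and Tubb3, 10 Tubb3 only, 6 Eomes and Tubb3 and 1 Eomes only. Over the members, the median difference was 0.06 for 49 cells with Sox2 minus 17 without, 0.10 for 28 cells with Eomes minus 38 without, and 0.04 for 35 cells with Tubb3 minus 31 without. Over all genes it was 0 for each. The Sox2 median was −0.16 within letter X and −0.07 without letter D, so its sign depends on which cells are counted.

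By a size of at least 1 log2 unit, 1 member was higher with Sox2 (5.31% of all genes) and 0 lower (3.28%). With Eomes 0 members were higher (1.1%) and 1 was lower (1.14%), and with Tubb3 1 was higher (1.76%) and 0 lower (2.6%). Each count is near or below its background.

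Uqcr10, a small subunit of complex III, was the member higher with Sox2. It ran from 6.74 through a median of 9.92 to 10.92 in cells with Sox2, and from 5.64 through 8.59 to 11.31 in cells without. The difference of 1.13 was 0.25 without the letter D cells, which are 7 of the 17 cells without Sox2, and 0.41 with the mean of its 3 probe sets. Ndufb6, an accessory subunit of complex I, was second at 0.79, and −0.13 within letter X. Atp5md and Ndufb2, another accessory subunit of complex I, were the furthest below, at −0.76 and −0.74.

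Atp5md was the member higher with Tubb3. It ran from 7.19 through 10.85 to 11.95 in cells with Tubb3, and from 5.64 through 9.27 to 11.84 in cells without. The difference of 1.06 was 1.02 without letter D, 1.14 within letter X and 1.27 within letters A to D, and the ranges overlapped throughout. Atp5md was also 0.94 higher in CP than in VZ/SVZ. Uqcrc2, a core protein of complex III, differed by 0.88 and Ndufs7 by −0.79 with Tubb3, and Uqcr10 by −0.73 (−0.29 without letter D).

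Atp5mpl, a small membrane subunit of the ATP synthase, was the member lower with Eomes. It was above 50 in 10 of 28 cells with Eomes and 30 of 38 without. Its median level was 5.64 in cells with Eomes, against 7.68 in cells without, and the highest cells read 9.40 and 10.28. The difference of −1.10 was −1.33 within letter X and −0.74 within letters A to D. Ndufb7 differed by 0.74 with Eomes (0.18 within letter X), Ndufv1, the subunit that binds NADH, by 0.57, and Sdha by −0.55 (−1.36 within letter X and −0.08 within letters A to D).

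Among title letters, D had the median furthest from 0, and it moved to 0 with the trimmed mean but not with spike scaling. The median over members of D minus the other VZ/SVZ cells was −0.26 on the deposited scale, −0.32 with spike scaling and 0 with the trimmed mean. Letters A, B, C and X had medians of 0.02, 0.01, 0.05 and 0.05. Past 1 log2 unit, 1 member was higher in A (3.85% of all genes) and 3 lower (2.73%), 0 higher in B (0.89%) and 0 lower (1.25%), 4 higher in C (2.78%) and 0 lower (3.12%), and 0 higher in X (1.51%) and 0 lower (0.506%). In D, 8 of 82 members were lower by at least 1 log2 unit, beside 8.99% of all genes, and 0 were higher, beside 4.03%. Among bright genes 22.9% were lower and 2.72% higher, beside 4 and 0 of the 44 bright members. D cells had a median of 4135 genes above 50, against 4616 to 4944 for the medians of the other letters. Of the members found in at least 90% of cells, a median of 3 were missing per D cell (1 to 6), against medians of 0 or 1 in A, B, C and X. The members' share of signal was 3.48% in D at the median, beside 3.45% over all VZ/SVZ cells. The part of total signal in the D values was not tested.

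The 8 members were named after their values were seen. Uqcr10 was the furthest below: the 7 D cells read 5.64, 5.64, 6.55, 7.34, 7.36, 9.10 and 9.50, against a lowest, median and highest of 6.74, 9.92 and 11.31 in the other VZ/SVZ cells. All D cells were below that median, and 3 were below every other cell. The difference was −2.35, and −2.07 with the trimmed mean. In CP cells Uqcr10 read 7.72, 9.57 and 9.69, so CP was higher than D by 1.69.

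Both membrane anchors of complex II were low in D: Sdhc by −1.54 and Sdhd by −1.45, each with 2 of 7 D cells on the floor. Sdhc read 5.64, 9.44 and 10.39 at the lowest, median and highest in D, against 5.64, 10.27 and 11.53 in the other cells. Ndufa2, an accessory subunit of complex I, differed by −1.39 with 1 of 7 D cells on the floor. Atp5a1 (−1.22), Ndufb6 (−1.18), Atp5k (−1.18) and Uqcrh (−1.16), the hinge protein of complex III, made up the rest, and with the trimmed mean these 4 lay between −0.88 and −0.82. Atp5k was thus lower in D and higher in CP than in VZ/SVZ cells, both of which are sets with Tubb3 in every cell.

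The mean level of the members in a VZ/SVZ cell went with the signal of the cell as a whole. Over 66 cells its Pearson correlation was 0.75 with the mean level of the 515 bright genes, 0.59 with the trimmed mean signal, 0.51 with the number of genes above 50, 0.25 with lys and 0.39 with dap. The bright genes include 44 members, and all these measures come from the same array. The members' share of signal had correlations of 0.02, −0.23, 0.10, −0.17 and 0.03 with the same 5 measures.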

How the data were processed

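Single cells were hybridised to 1 array each. The authors deposited 1 linear intensity per probe set and cell, and the submitters' processing notes name MAS5. The scaling of the arrays is not given in the labels or notes. There were 45101 probe sets in 69 cells. Of these, 34958 had 1 gene in the platform annotation, 932 several and 9211 none, and only the first were used. Each of 18194 genes was read from 1 probe set, the brightest by mean log2 signal. A level is log2 of the signal with values under 50 set to 50, and differences are of mean levels. The number of arrays limits the precision. The replicate number of a cell is only a name given in accession order. The source label set the group, since the description field gives VZ/SVZ for all cells, the 3 from the CP included.

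The members and lists were chosen with earlier results of these data known. Genes were named by a rule: isoform genes, up to 2 members per complex and direction for CP minus VZ/SVZ, 2 per direction for each marker, up to 5 found in all or in under 10% of cells, 2 with the largest and smallest SD, and 2 genes per list. Others are said to be chosen after their values were seen. Differences of at least 1 log2 unit are a rule of size, not a test. The computation of differences was tested on simulated data, with set changes put into genes bright in VZ/SVZ cells. That test did not cover genes of low level or differences in scaling between cells.

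Alternatives were a floor at 6.26 (the 95th percentile of TrpnX control probe sets), no floor, scaling to a mean trimmed by 2% at either end, quantile normalization, the mean of all probe sets, scaling to the spikes, leaving out each CP cell, and subsets by title letter. Promoters are from RefSeq, GRCm38.p6. Python 3.11.15, numpy 2.4.6, pandas 2.3.3, scipy 1.17.1 and matplotlib 3.10.9 were used.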

Additional observations from a re-analysis of the deposited data

Results flagged for a closer look

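Of 24 values checked for a cell far from the others of its letter, 1 met the limit. A single letter C cell lacked 1 of the members found in at least 90% of cells, and the other 6 lacked 0. This value is a count, and where all other cells are equal any differing cell meets the limit. The rate of about 1 in 20 by chance holds for continuous values and does not apply to it.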

How the results depend on the processing

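The median over members for CP minus VZ/SVZ was −0.31 and reversed to 0.16 with the trimmed mean and 0.019 with quantile normalization. Members 1 log2 unit or more higher in CP numbered 2, and 4 with the TrpnX floor, 6 with no floor, 11 with the trimmed mean, 9 with quantile normalization, 4 with spike scaling and 3 to 4 when 1 CP cell was left out. The share of all genes higher by that size was 5.07%, and 10.6%, 17.8%, 9.15%, 9.76% and 5.83% under the same 5 settings. Members lower by that size numbered 11, and 3 with the trimmed mean, 3 with quantile normalization, 7 with the mean of all probe sets and 8 to 18 when 1 CP cell was left out (18 without CP replicate 1). The share of all genes lower by that size was 12.9%, and 10.3%, 9.48% and 7.24% with the trimmed mean, quantile normalization and the mean of all probe sets. Probe sets on the floor in every cell add a difference of 0 to the mean of all probe sets, so they can only shrink it. For the counts with 1 CP cell left out, higher and lower, no share of all genes was worked out. Those counts thus have no background to be read against. The 3 lower members under the trimmed mean and under quantile normalization were among the 11. The mean of all probe sets moved the median share of signal to 4.47% in CP and 3.99% in VZ/SVZ. The causes were not tested, apart from the fewer cells when 1 is left out. The other 90 values tried for group, marker and letter results counted as unmoved, which for counts meant within 1.5 times. For medians and shares it meant within 1 SD over VZ/SVZ cells, 0.32 log2 units and 0.41 percentage points. That limit is wide beside the marker and letter medians, which could hardly exceed it. The Sox2 median of 0.06 counted as unmoved though its sign changed within letter X. So did the letter D median of −0.26, which the trimmed mean removed. No paired analysis was possible because the replicate numbers only name cells. With 3 CP cells and no animal named, these differences have no replicate check, and a member on the floor in a cell has only an upper limit there.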
